A study of Mus musculus with 3 samples.

Results

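The light polysome fraction of cultured mouse lymph node stromal cells was compared between cells treated with Eif4g3 siRNA and cells treated with control siRNA, on 1 two-colour array. Members are the genes whose probes were well above background in both channels and carried no outlier mark, which left 14093 of 27732 gene names on the array. No ratio entered that choice. Each gene's value is a log2 ratio, Eif4g3 siRNA divided by control, so that 1 is a 2-fold higher and -1 a 2-fold lower level.

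Both groups were stromal cells of BALB/c mice, grown in DMEM with 10% FCS on 10 cm dishes and transfected with 400 pmol of siRNA by Lipofectamine 2000, a lipid carrier. One group received Eif4g3 siRNA and the other Control siRNA; medium was renewed at 24 h and cells were taken at 48 h. Transfected cells (7 plates, per siRNA or in all is not stated) were pooled before lysis, and the lysates were spun through a sucrose gradient of 10% to 60%. Fractions were pooled into top, light and heavy, and 200 ng of RNA was labelled for each sample, Eif4g3 siRNA in Cy5 and control siRNA in Cy3. Whether the cultures came from 1 or several mice was not stated.

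Initiation of translation on capped mRNAs begins with eIF4F, in which the cap-binding protein eIF4E, the helicase eIF4A and a scaffold protein of the eIF4G family meet and recruit the small ribosomal subunit. Eif4g3 encodes eIF4GII, the close relative of the main scaffold eIF4GI, which is encoded by Eif4g1. In a sucrose gradient, mRNAs with few ribosomes sediment as light polysomes and mRNAs with many as heavy polysomes, while free mRNA stays at the top. A ratio within 1 fraction holds both the amount of an mRNA in the cell and its share in that fraction, and these cannot be told apart here. In pooled cells, fewer cells of a type and less RNA per cell cannot be told apart either.

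With 1 array per fraction and no dye swap there is no replicate error, and no test or p-value between the siRNAs exists. The error beside each ratio (±) is that of the scanner software for the spot, with a median of 0.21 on the log2 scale, and it covers neither the cultures nor a dye effect of single probes. Repeated spots of 97 probes (10 spots each) had a median SD of 0.06, and different probes of 1 gene a median SD of 0.16. The siRNA channel was the brighter, with an upper-quartile signal of 636 against 265, so a gene whose signals are alike in both channels has a ratio below 0. Over all measured genes the median ratio was 0.02 with 5% of genes below -0.47 and 5% above 0.52. This median and the share of all genes above 0 are given for the light array only. Medians and counts above 0 on the other arrays therefore stand without that background.

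After Eif4g3 siRNA, 56 genes (0.397% of those measured) were at least 2-fold higher and 41 (0.291%) at least 2-fold lower in light polysomes. At 1.5-fold the counts were 490 higher (3.48%) and 371 lower (2.63%). Interferon-induced genes, cell cycle genes and contractile genes had medians above that of all genes, while most lists of housekeeping genes had medians near it. The number of calls depended on the scaling. Without loess 153 genes were higher and 28 lower, which raised the share of higher genes among the calls from 57.7% to 84.5%, and with the scanner software's own ratio the share was 48.7%. Without background offset it was 48.5%.

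**Figure D1:**
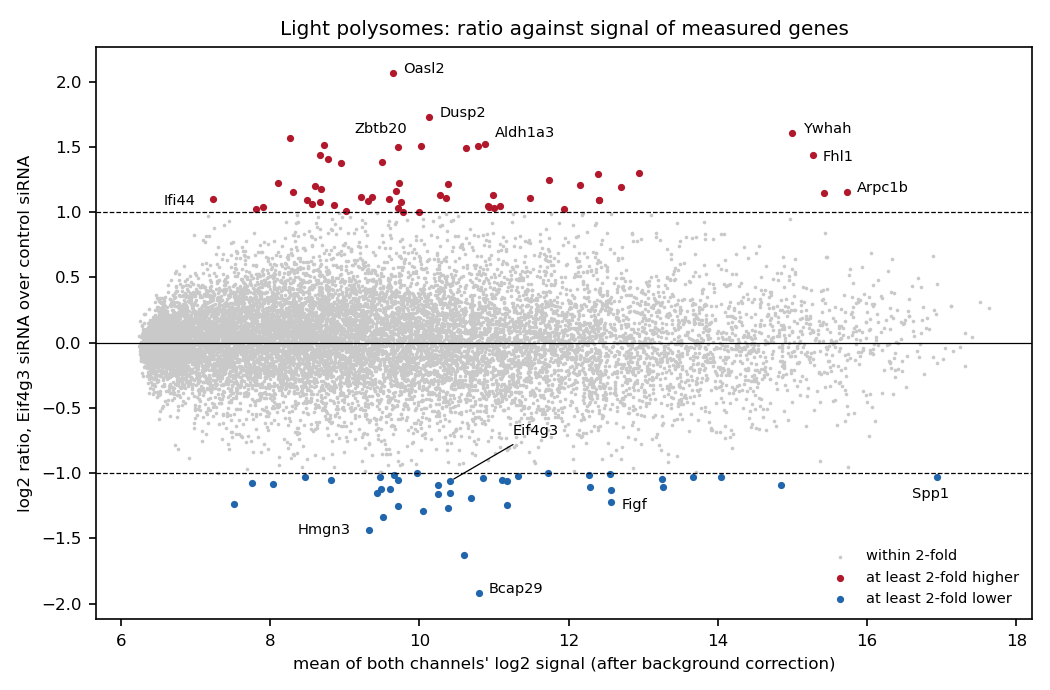
Log2 ratio (Eif4g3 siRNA divided by control) (vertical axis) against the mean log2 signal of both channels (horizontal axis) for the 14093 measured genes of the light polysomes, with dashed lines at 2-fold. Red points are the 56 genes at least 2-fold higher and blue points the 41 at least 2-fold lower; 1 of the higher and 0 of the lower ones lie in the dimmest quartile, where the offset pulls ratios towards 0.

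The siRNA target came first as a check of the labels. Net signals of Eif4g3 were 1322 for control and 1425 for siRNA, and its ratio was -1.06 ± 0.16, that is 2.09-fold lower. Its probes had -0.99 ± 0.23 (chr4:137475547-137478087, build mm8) and -1.13 ± 0.23 (chr4:137478284-137478343). Relative to other genes of like brightness the target was thus lower in the channel labelled Eif4g3 siRNA. The ratio was -0.43 in the top and -1.77 in the heavy fraction, so the light polysomes lay between the others. Without loess it was -0.89 in light polysomes and no longer 2-fold lower.

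The other scaffold genes stayed within 2-fold. Eif4g1 had 0.15 ± 0.15 over probes at 0.00 and 0.30. Eif4g2, a relative of eIF4G that does not bind eIF4E, had -0.50 ± 0.11, with 4 probes between -0.83 and -0.33. The 21 measured genes of eIF4F, its regulators and the poly(A) binding proteins had a median of -0.01, 10 of them above 0, and Eif4g3 was the only member past 2-fold. The cap-binding protein gene Eif4e had 0.29 ± 0.15, the helicase genes Eif4a1 and Eif4a2 had -0.08 and -0.09, and the helicase cofactor gene Eif4b -0.04. The eIF4E kinase genes Mknk1 and Mknk2 had 0.34 and 0.27. Pabpc1 and Pabpc4, which bind the poly(A) tail, had -0.38 and -0.39 in light polysomes beside 1.22 and 0.87 in the top fraction and 0.01 and -0.11 in the heavy one. The other initiation factors ran from Eif1, of start codon selection (-0.54 ± 0.15), to Eif2a (0.52 ± 0.21), with a median of 0.02 over 29 genes.

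Among the 33 lists, interferon-induced effectors had the highest median. Interferons are signalling proteins of antiviral defence: RNA sensors start their production, receptors signal through JAK kinases and STAT factors, and a complex that holds Stat2 and Irf9 switches on effector genes by way of a short promoter motif. Of the effectors on the array 52 of 62 were measured; their median was 0.52, 48 were above 0, 24 were at least 1.5-fold higher and 10 at least 2-fold higher, and 0 were 1.5-fold lower. Over all measured genes 52.6% were above 0, 3.48% at least 1.5-fold higher, 0.397% at least 2-fold higher and 2.63% at least 1.5-fold lower. The count of 0 lower effectors was near that last share. Sensors, signalling genes and effectors together had a median of 0.36 over 78 measured genes, with 65 above 0 and 12 at 2-fold.

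The motif bound by that complex is shown here because the highest group of genes in light polysomes is the one known for it. It was searched as GAAANNGAAA, and as TTTCNNTTTC for the other strand, in windows of RefSeq promoters from 250 bases before to 50 after the start (GRCm38.p6), with overlapping matches counted. Of 32851 windows 3.44% held it, and of 9522 measured genes with a window 3.6% did. Of 41 measured effectors with a window 19 (46.3%) held it. So did 8 of 38 genes at least 2-fold higher (21.1%), 5 of these 8 being effectors, and 1 of 28 at least 2-fold lower (3.57%). Effectors under 1.5-fold also held it often (8 of 22, 36.4%), beside 11 of 19 effectors at least 1.5-fold higher (57.9%). The share among higher genes thus largely follows membership in the effector list. A match describes these letters and is not evidence of a bound site. Of 8 effectors past 2-fold with a window 5 held the motif, while Oasl2, Ifi44 and Sp110 did not, and no window was matched for Rtp4 and Parp14. The stretches below lie before the start of those 5 genes, with matches in capitals. They are Gbp3 (chr3:142559965-142560043, plus strand), Ifit1 (chr19:34640764-34640853, plus strand), Igtp (chr11:58199482-58199555, plus strand), Irgm2 (chr11:58214873-58214962, plus strand) and Isg15 (chr4:156200835-156200924, minus strand).
Gbp3: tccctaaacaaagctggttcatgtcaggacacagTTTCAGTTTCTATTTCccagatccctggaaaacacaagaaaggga
Ifit1: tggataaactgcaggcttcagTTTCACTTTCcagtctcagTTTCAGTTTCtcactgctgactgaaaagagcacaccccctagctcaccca
Igtp: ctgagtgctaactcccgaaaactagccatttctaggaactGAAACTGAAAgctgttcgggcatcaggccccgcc
Irgm2: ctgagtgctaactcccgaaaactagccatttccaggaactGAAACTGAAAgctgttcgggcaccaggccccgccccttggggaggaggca
Isg15: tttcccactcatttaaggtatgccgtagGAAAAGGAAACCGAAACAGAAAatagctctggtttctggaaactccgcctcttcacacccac
The stretches of Igtp and Irgm2, neighbours on chromosome 11, differ at 2 of 74 bases, and their ratios were 1.11 and 1.08. Isg15 has overlapping matches in 1 run (3 in its window), and Gbp3 and Ifit1 have 2 each.

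Among the sensors, Ifih1, which encodes the RNA sensor MDA5, had signals of 162 (control) and 1100 (siRNA), a ratio of 1.37 ± 0.25. The ratio was 0.15 in the top and 1.0001 in the heavy fraction, so Ifih1 was higher in both polysome fractions. Oas1a, a synthase of oligoadenylate second messengers, had 0.96 ± 0.23, and the nucleic acid sensor gene Zbp1 0.61 ± 0.23. Ddx58, which encodes the RNA sensor RIG-I, had 0.21 ± 0.17, and Eif2ak2, the RNA-activated kinase PKR, 0.26 ± 0.21. Irf3, the factor that starts interferon transcription, had -0.22 ± 0.17. The interferon genes Ifnb1 and Ifna4 were not well above background in either channel, and neither were Tlr3, Tlr7, Oas1b, Oas1g and Oas3.

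Among the signalling genes, Usp18, which removes Isg15 from proteins and restrains the receptor, had 1.51 ± 0.27, and Isgf3g, now named Irf9, 0.91 ± 0.23. Receptor and kinase genes had values nearer 0 (Ifnar1 0.30, Ifnar2 -0.28, Jak1 0.16 and Tyk2 -0.02), and so did the STAT factor gene Stat2 (0.05). The receptor gene Ifngr2 had -0.38 ± 0.15, and the feedback inhibitor gene Socs3, the lowest of the 16 measured, -0.58 ± 0.21. The list had a median of 0.06, with 9 of 16 above 0.

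Among the effectors, Oasl2, an antiviral protein of the oligoadenylate synthetase family, had the highest ratio of all measured genes. Its signals were 214 (control) and 2379 (siRNA) at chr5:115173158-115173217, a ratio of 2.07 ± 0.29 or 4.19-fold. Rtp4, a chaperone of receptors induced by interferon, had 639 and 4472 (1.51 ± 0.25), and Parp14, an ADP-ribosyl transferase, 255 and 1681 (1.38 ± 0.25). Oasl2 had 0.65 in the top and 1.38 in the heavy fraction, Rtp4 0.68 and 1.48, and Parp14 0.57 and 0.77. All 3 lay above 0 on every array. Without the background filter, which leaves in probes not above background in both channels, Parp14 had 0.54 and the sensor gene Ifih1 0.80, both short of 2-fold.

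The guanylate-binding and immunity-related GTPases act on the vacuoles of intracellular pathogens. Gbp3 had 1.16 ± 0.25, Igtp 1.11 ± 0.24 and Iigp2, now named Irgm2, 1.08 ± 0.24, while Iigp1 had 0.82, Irgm (Irgm1) 0.71, Gbp2 0.49, Gbp4 0.18 and Ifi47 0.13. These families have close paralogues that probes may not tell apart. Sp110, a nuclear body protein, had 1.12 ± 0.23, Ifi44 1.104 ± 0.30, the ubiquitin-like modifier Isg15 1.08 ± 0.23 and Ifit1, which binds foreign RNA caps, 1.02 ± 0.25. The signal of Ifi44 was only 30.3 in the control channel, near the highest signal not well above background there (26.2).

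Just under 2-fold were Ifi27 (0.98 ± 0.13 over 3 probes), Phf11 (0.97 ± 0.31), the chemokine gene Cxcl10 (0.95 ± 0.22), the virus tether Bst2 (0.84 ± 0.22), Ifi203 (0.83) and Lgals3bp (0.83). The lowest effectors were Ifit2 (-0.17 ± 0.18), Ifi204 (-0.15 ± 0.13), Daxx (-0.11 ± 0.20) and Plscr1 (-0.04 ± 0.12). The membrane proteins Ifitm1, Ifitm2 and Ifitm3, which block virus entry, had 0.02, 0.01 and 0.07. The antiviral Rsad2 had 0.07 ± 0.25. Members past 2-fold thus stood beside members near 0 within the same families, such as Ifit1 and Ifit2. Mx1, Trim30, Samd9l and Epsti1 were among the 10 effectors not measured in both channels, 2 of them with signal in the siRNA channel only.

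The effector list had a median of 0.35 over 34 genes in the top and 0.31 over 53 in the heavy fraction, with 1 and 11 members at least 2-fold higher, where the background is 0.43% and 0.507%. The fractions share lysates, slide and dye order, so these are values side by side and not repeats. Lgals3bp, Ube1l (now Uba7) and Gbp2 were higher in light polysomes (0.83, 0.74 and 0.49) and below 0 in heavy ones (-0.16, -0.03 and -0.20). Ifi27, Bst2 and Nmi were higher in heavy (1.72, 1.25 and 1.06) than in light polysomes. Under the alternatives the light median stayed between 0.31 (without the background filter) and 0.69 (software's ratio).

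**Figure D2:**
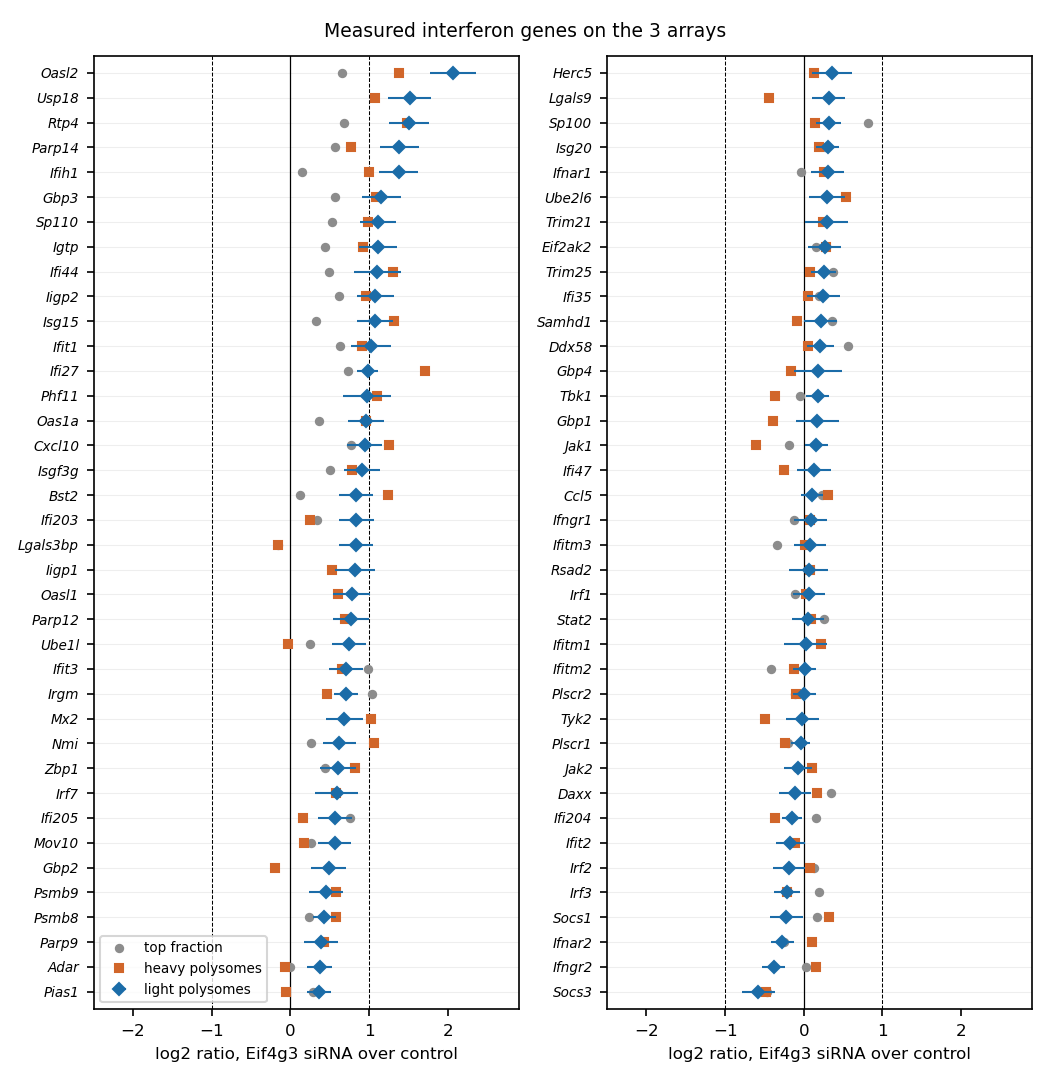
Log2 ratio (Eif4g3 siRNA divided by control) for measured interferon genes in the light polysomes (blue diamonds, with the spot error as bars), beside the top fraction (grey circles) and the heavy polysomes (orange squares), with dashed lines at 2-fold. Oasl2, Usp18 and Rtp4 lead the light values at 2.07, 1.51 and 1.51, and Socs3 is the lowest at -0.58.

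Antigen presentation genes, many of which interferon also induces, had a median of 0.13 over 26 measured, with 19 above 0. At 1.5-fold 0 were higher and 1 was lower. All measured genes had 52.6% above 0, 3.48% higher and 2.63% lower, so both 1.5-fold counts were near the background. The trimming peptidase gene Arts1, now Erap1, had the highest value (0.52 ± 0.21), followed by H2-T23 and the immunoproteasome gene Psmb9 (both 0.45). B2m, the light chain of class I molecules, had 0.38 ± 0.11 in light polysomes, -0.72 in the top and 0.56 in the heavy fraction. The peptide-loading chaperone genes Pdia3 (-0.67 ± 0.21) and Calr (-0.58 ± 0.15) were the lowest.

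Cell cycle genes had a median of 0.24 over 70 of 72 measured in light polysomes, with 52 above 0, 10 at least 1.5-fold higher and 2 at least 1.5-fold lower. None reached 2-fold. Over all measured genes 52.6% were above 0, 3.48% at least 1.5-fold higher and 2.63% at least 1.5-fold lower, so the count of lower members was near the background. In the top fraction their median was 0.01 (34 of 63 above 0) and in the heavy fraction -0.08 (28 of 72), with no share over all genes given for those arrays. The median ran from 0.23 to 0.34 under the alternatives, above 0 under each. Without loess 5 members were at least 2-fold higher, and 1 with the scanner software's ratio, beside 153 and 148 of all 14093 measured genes. A test of the difference between fractions does not exist with 1 array each.

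Values varied among members with the same role. Of the MCM helicase, which opens replication origins, Mcm4 had 0.78 ± 0.22, Mcm6 0.68 ± 0.21, Mcm2 0.67 ± 0.21 and Mcm3 0.57 ± 0.15, whereas Mcm7 had 0.05 and Mcm5 -0.02. In heavy polysomes these 6 genes had -0.08, -0.03, -0.28, -0.37, -0.41 and -0.63, each lower than in light polysomes. The polymerase genes Pole and Pola1 and the primase gene Prim1 had 0.72, 0.56 and 0.64 (± 0.21 each). Other replication genes had values nearer 0 or below it, such as Pcna (0.14), Rrm1 (0.10) and Rpa2 (-0.42 ± 0.15). Among genes of mitosis, Prc1, which bundles spindle microtubules, had signals of 2403 and 11098 and a ratio of 0.90 ± 0.22, and Cdc2a, now Cdk1, the main mitotic kinase, 898 and 3858 and 0.83 ± 0.22. Prc1 had 0.15 in the top and -0.25 in the heavy fraction, and Cdc2a 0.03 and 0.09. Bub1b, Ube2c and Cenpa, which also act in mitosis, had 0.14, -0.07 and -0.15 in light polysomes.

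The lowest member was the D-type cyclin gene Ccnd3, with -0.77 ± 0.21. Ccnd1 had -0.57 ± 0.07 and Ccnd2 -0.23 ± 0.12, while of the E-type cyclin genes Ccne1 had -0.22 and Ccne2 0.25. Cdkn1a, which encodes the inhibitor p21, had -0.73 ± 0.08, and the inhibitor genes Cdkn1b, Cdkn2c and Cdkn2a had -0.11, -0.05 and 0.02. Ccnd3 had -0.82 in the top and -0.76 in the heavy fraction, so it was low on every array. Ccng2, a cyclin linked to growth arrest, was the highest member (0.97 ± 0.22) and was higher in heavy polysomes (1.498). The proliferation marker Mki67 had -0.36 ± 0.15, Top2a -0.04, Pcna 0.14 and Ccna2 0.03, so the members did not move as 1 block.

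**Figure D3:**
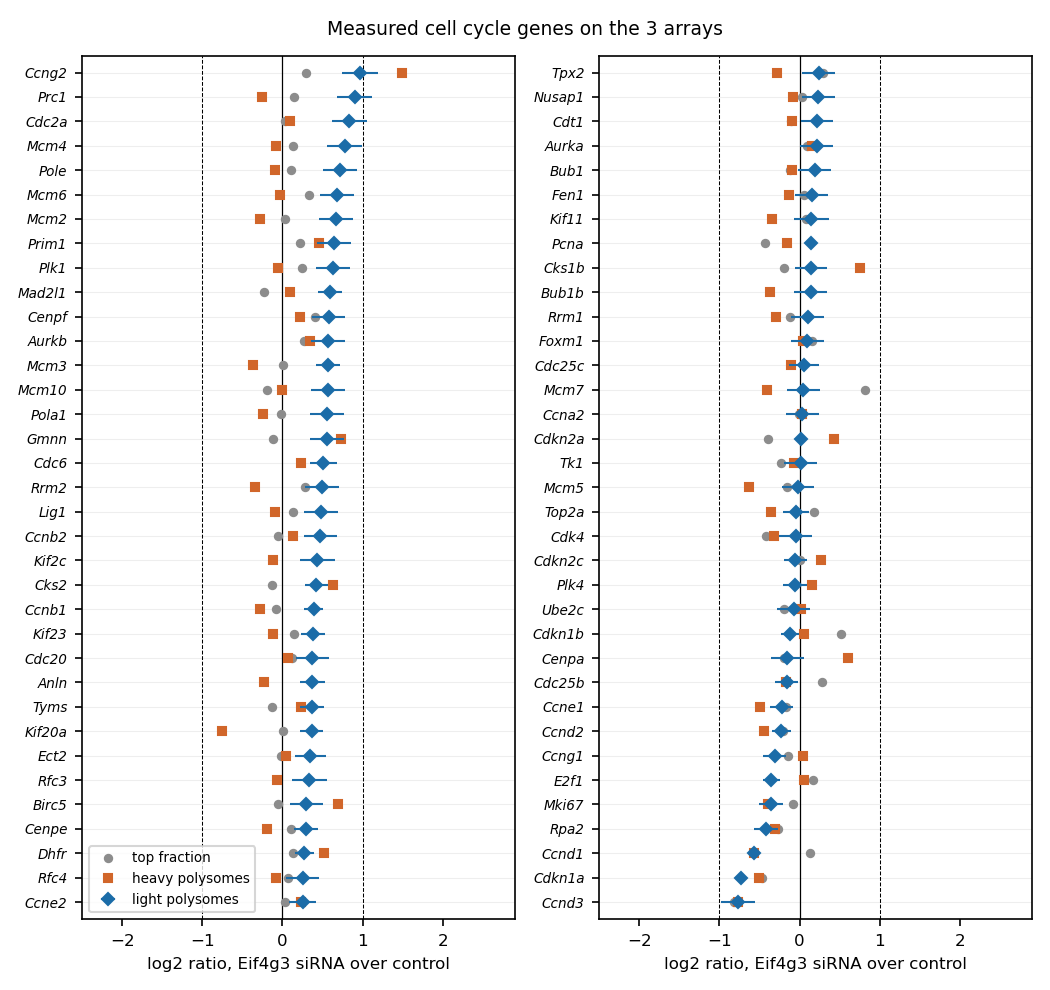
Log2 ratio (Eif4g3 siRNA divided by control) for the 70 measured cell cycle genes in the light polysomes (blue diamonds, with the spot error as bars), beside the top fraction (grey circles) and the heavy polysomes (orange squares), with dashed lines at 2-fold. The light values run from -0.77 (Ccnd3) to 0.97 (Ccng2), and the heavy values of Mcm2 (-0.28), Mcm3 (-0.37) and Prc1 (-0.25) lie on the other side of 0 from their light values.

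The highest named genes outside the interferon lists had several roles. Dusp2, a phosphatase that switches off MAP kinases, had signals of 361 and 3025 (chr2:127029635-127029694), a ratio of 1.73 ± 0.27, beside 1.76 in the top and 1.87 in the heavy fraction. The immediate early genes Arc and Egr1, which respond rapidly to growth signals, had 1.30 ± 0.24 and 1.21 ± 0.23, with 1.59 and 1.29 in the top and 0.66 and 1.40 in the heavy fraction. All 3 were above 0 in every fraction. The immediate early list had a median of 0.18 over 35 genes, with Dusp2, Arc and Egr1 past 2-fold and Btg2, an inhibitor of proliferation, lowest (-0.64 ± 0.13).

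Ywhah, the eta member of the 14-3-3 proteins that bind phosphorylated partners, was bright in both channels (11345 and 94024; chr5:33344713-33344772) and had 1.61 ± 0.25. Of the 7 family members Sfn had 0.69 ± 0.21, Ywhaq 0.40 ± 0.15, Ywhae 0.04, Ywhag -0.29, Ywhaz -0.32 and Ywhab -0.45 ± 0.15, so the family spread to both sides of 0. Aldh1a3, which makes retinoic acid, had signals of 680 and 4811 and a ratio of 1.52 ± 0.25, from 1 of its probes, while the other was not above background and lowered the value to 0.78 where it was averaged in. The related Aldh1a2 had 0.63 ± 0.21 and Aldh1a1 -0.40 ± 0.22, and the retinoic acid receptor gene Rarb -0.74 ± 0.07. The retinoic acid list had a median of -0.07 over 21 genes, or 0.07 without loess.

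Zbtb20, a zinc finger repressor, was high in light polysomes and near 0 elsewhere. Its probes on chromosome 16 had 1.34 ± 0.25 (chr16:43538173-43538232) and 1.67 ± 0.26 (chr16:43543169-43543228), and the gene 1.51 ± 0.18, beside 0.19 in the top and -0.25 in the heavy fraction. Nppb, a natriuretic peptide, had 1.13 ± 0.16 in light polysomes, -0.07 in the top and 1.41 in the heavy fraction. Arpc1b, a subunit of the actin-nucleating Arp2/3 complex, had 1.15 ± 0.23, beside 2.65 in the top and 0.81 in the heavy fraction.

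The remaining highest genes were Pqlc3, a membrane protein gene (1.499 ± 0.25), Plp2, a membrane protein (1.29 ± 0.17), Gjb2, which encodes the gap junction protein connexin 26 (1.25 ± 0.24), Eps15 of endocytosis (1.21 ± 0.17) and Anxa8, a calcium-dependent lipid-binding protein (1.19 ± 0.07). Without the background filter Gjb2 had 0.75 and Eps15 0.80. In the heavy fraction the 5 genes had 1.39, 0.77, 0.68, 1.25 and 0.90, and in the top fraction the last 4 had 0.35, 1.01, 0.64 and 1.20. Of the 56 higher genes 49 were above 0 in the heavy fraction (median 0.96), and 46 of the 48 measured in the top fraction were above 0 (median 0.57). The share of all genes above 0 in those fractions is not given here.

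**Figure D4:**
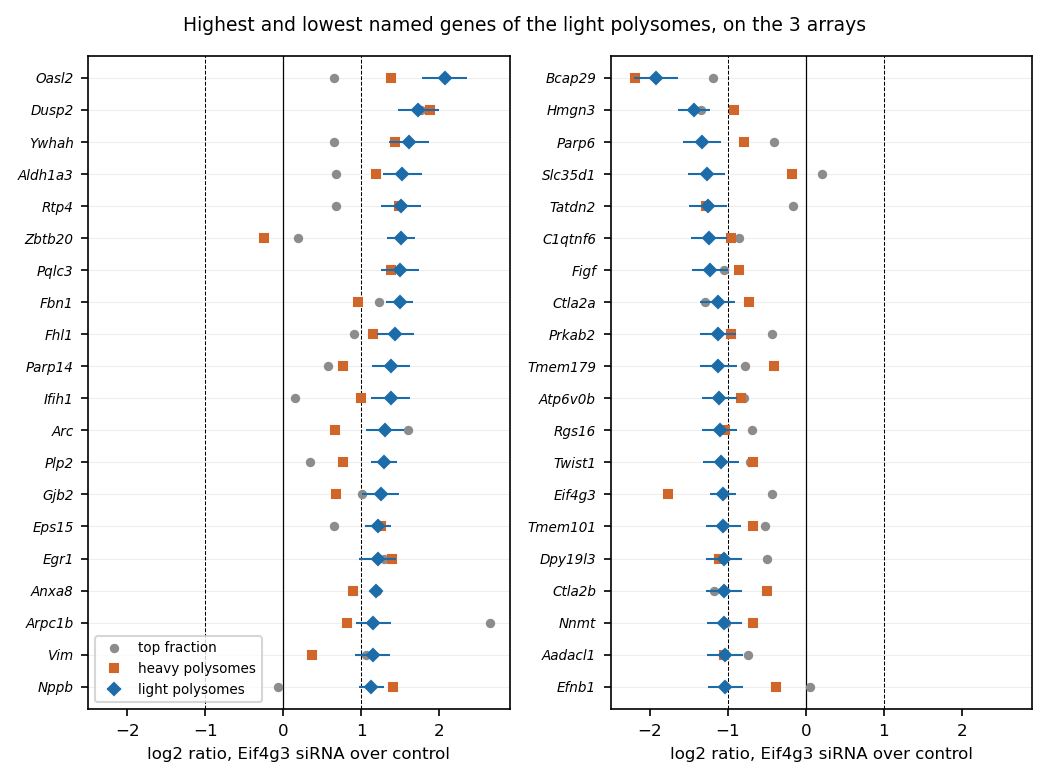
Log2 ratio (Eif4g3 siRNA divided by control) for the 20 highest and 20 lowest named genes of the light polysomes (blue diamonds, with the spot error as bars), beside the top fraction (grey circles) and the heavy polysomes (orange squares), with dashed lines at 2-fold. Zbtb20 and Slc35d1 stand far from their heavy values of -0.25 and -0.18, whereas Dusp2 lies between 1.73 and 1.87 on every array.

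Genes of the actin cytoskeleton and of smooth muscle had a median of 0.24 over 37 measured, with 30 above 0, 3 at least 1.5-fold higher and 0 lower, where all measured genes had 52.6% above 0, 3.48% higher and 2.63% lower. Fhl1, a LIM domain protein of muscle, was past 2-fold, with signals of 14459 and 107469 and a ratio of 1.44 ± 0.24 (0.90 in the top, 1.15 in the heavy fraction). Actg2, the smooth muscle gamma actin, had 0.69 ± 0.22, the calponin gene Cnn1 0.64 ± 0.21, Csrp1 0.57, the non-muscle myosin gene Myh10 0.57 and zyxin (Zyx) 0.55. The lowest members were Myocd, the activator of smooth muscle genes (-0.43 ± 0.24), Smtn (-0.37), Cnn2 (-0.31) and Tpm2 (-0.24). The list's median was 0.14 in the top and -0.10 in the heavy fraction. These genes are bright, and without loess their light median was 0.48. Vim, the intermediate filament of mesenchymal cells, had signals of 17704 and 107984 and a ratio of 1.14 ± 0.23, beside 1.05 in the top and 0.37 in the heavy fraction. Averaged with its probe at background, Vim had 0.54.

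Matrix genes spread to both sides of 0. Fbn1, the fibrillin of elastic microfibrils, had 1.16 ± 0.24 and 1.82 ± 0.26 on its probes and 1.49 ± 0.18 as a gene, with 1.23 in the top and 0.96 in the heavy fraction. The elastic fibre list had a median of 0.18 over 20 genes, with Loxl4 (0.43), Emilin2 (0.40), Mfap3 (0.38) and Loxl1 (0.35) next, and Fbln1 lowest (-0.40 ± 0.15). Collagens had a median of 0.09 over 24 genes, led by the basement membrane chain Col4a2 (0.97 ± 0.16) and the fibril regulator Col5a2 (0.73 ± 0.21), with Col5a3 lowest (-0.39 ± 0.21). In the heavy fraction the collagen median was -0.43 and both genes were below 0 (-0.53 and -0.66).

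Of the matrix glycoproteins, with a median of 0.13 over 36 genes, the laminin chain Lamc1 (0.75 ± 0.21) and Igfbp7 (0.69 ± 0.21) were the highest, and fibronectin, Fn1, had 0.17 ± 0.09. Spp1, which encodes osteopontin, was the only member past 2-fold and was lower (-1.03 ± 0.07, with -1.58 in the top and -1.08 in the heavy fraction). Without loess 0 members of this list were 2-fold lower and 1 was 2-fold higher. Proteoglycans had a median of -0.11 over 17 genes, from the syndecan gene Sdc1 (-0.96 ± 0.22) to Prelp (0.74 ± 0.24). Matrix proteases and their inhibitors had -0.07 over 37, from Mmp3 (-0.83 ± 0.22) and Adam19 (-0.65) to Serpinf1 (0.51 ± 0.15). Both medians were below 0 under every alternative tried.

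Bcap29, a membrane protein of the endoplasmic reticulum that escorts cargo, had the lowest ratio of all measured genes. Its signals were 2220 (control) and 1328 (siRNA) at chr12:32181568-32181627, a ratio of -1.92 ± 0.28 or 3.78-fold lower, with -1.19 in the top and -2.19 in the heavy fraction. Hmgn3, which binds nucleosomes, had -1.03 ± 0.32 and -1.84 ± 0.27 on its probes and -1.43 ± 0.21 as a gene, with -1.34 and -0.92 elsewhere. The other 10 measured members of its protein class lay between -0.17 (Nsbp1, now Hmgn5) and 0.47 (Hmga2), so Hmgn3 alone was past 2-fold. The value of Nsbp1 is a mean of probes at -0.67 and 0.32.

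Other genes past 2-fold lower were C1qtnf6 (-1.24 ± 0.23), the lymphatic growth factor Figf, now Vegfd (-1.23 ± 0.23), the neutrophil chemokine Cxcl5 (-1.24 ± 0.27) and the ephrin Efnb1 (-1.03 ± 0.22). Figf had -1.05 in the top and -0.85 in the heavy fraction, whereas Efnb1 had 0.06 and -0.39. The cytokine list had a median of -0.05 over 52 genes, with Cxcl5 and Figf past 2-fold lower, Fgf7 (-0.78 ± 0.22), Ccl7 (-0.69 ± 0.15) and Il6 (-0.67 ± 0.07) next, and Cxcl10, also an interferon effector, highest.

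Slc35d1, a carrier of nucleotide sugars into the endoplasmic reticulum, had -1.27 ± 0.24, beside 0.21 in the top and -0.18 in the heavy fraction. Parp6 had -1.33 ± 0.24, Tatdn2 -1.25, the AMP kinase subunit Prkab2 -1.13, the proton pump subunit Atp6v0b -1.11, Rgs16, which shortens G protein signals, -1.10, and the mesenchymal transcription factor Twist1 -1.09. Nnmt, a methyltransferase of nicotinamide, had -1.04, the cholesterol ester hydrolase gene Aadacl1 (now Nceh1) -1.04, the glycosyltransferase gene Dpy19l3 -1.05, and the membrane protein genes Tmem179 and Tmem101 -1.12 and -1.06. Ctla2a and Ctla2b, closely related protease inhibitor genes that 1 probe each may not tell apart, had -1.13 and -1.05, with -1.29 and -1.17 in the top fraction. Several of these lower genes had almost equal net signals in both channels, such as Prkab2 (723 and 722). Without loess 13 of the 40 named genes fell short of 2-fold, all of them among the 20 lowest. Without the background filter Parp6 had -0.64, Slc35d1 -0.59 and Dpy19l3 -0.32.

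The 41 lower genes had a median of -0.72 in the heavy fraction, where 3 were above 0. In the top fraction the median was -0.44 and 5 of the 40 measured there were above 0. Shares over all genes in these fractions are not given here.

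Lists of translation, histone, energy and protein folding genes mostly had medians near the array's. Ribosomal protein genes had medians of 0.09 (large subunit, 47 genes) and 0.04 (small subunit, 31), with Rps15 alone at 1.5-fold lower (-0.67 ± 0.21) and Rpl7a highest (0.45 ± 0.12). In the top fraction these medians were 0.53 and 0.47. Elongation factors and other mRNAs that start with a pyrimidine tract had 0.16 over 18 genes, 13 of them above 0, led by Vim, Eef1e1 (0.56) and Eef1a1 (0.48). Histones had 0.10 over 41, 31 of them above 0 (52.6% over all measured genes), with H3f3a highest (0.83 ± 0.13). Without loess these 4 medians were 0.48, 0.42, 0.49 and 0.38, so how far they lay above 0 was set by the scaling.

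The medians were -0.03 for the respiratory chain (75 genes), -0.05 for mitochondrial ribosomal proteins (75), -0.02 for endoplasmic reticulum chaperones (49) and -0.05 for the proteasome (38). All 4 were above 0 without loess (0.35, 0.19, 0.15 and 0.20), so these lists had no settled direction. Their ends were Ndufb9 (-0.72 ± 0.22) and Cycs, cytochrome c (0.54 ± 0.12), of the respiratory chain, and Dnajc1 (-0.99 ± 0.13), Fkbp9 (-0.92 ± 0.22) and the chaperone Hyou1 (0.58 ± 0.21) beside Bcap29 in the endoplasmic reticulum list. Psmb7 (-0.75 ± 0.22) and Psmd8 (0.59 ± 0.21) were the ends of the proteasome.

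Genes of glycolysis and the hypoxia response had a median of 0.05 over 42. Ddit4, an inhibitor of mTOR signalling, was 2-fold lower (-1.03 ± 0.22, with -0.07 in the top and -1.46 in the heavy fraction). The vasodilator gene Adm had -0.85 ± 0.22 and Eno1 -0.69 ± 0.22, while Pfkfb4 (0.74 ± 0.21) and the glucose carrier gene Slc2a1 (0.64 ± 0.21) were the highest. Without loess 0 members of this list were 2-fold lower and 2 were 2-fold higher. With the scanner software's ratio 0 were past 2-fold. Genes of the Atf4 pathway, which answers amino acid shortage, had 0.05 over 45, from Atf4 itself (-0.76 ± 0.22) to Chac1 (0.98 ± 0.22) and the tRNA synthetase gene Iars (0.76 ± 0.17). In the heavy fraction Iars had -0.55 and the list -0.33. Sterol and lipid synthesis genes had 0.03 over 39, with Abcg1 lowest (-0.70 ± 0.22) and Nsdhl, of cholesterol synthesis, at 0.47 ± 0.12. Their median was -0.04 with no background offset.

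**Figure D5:**
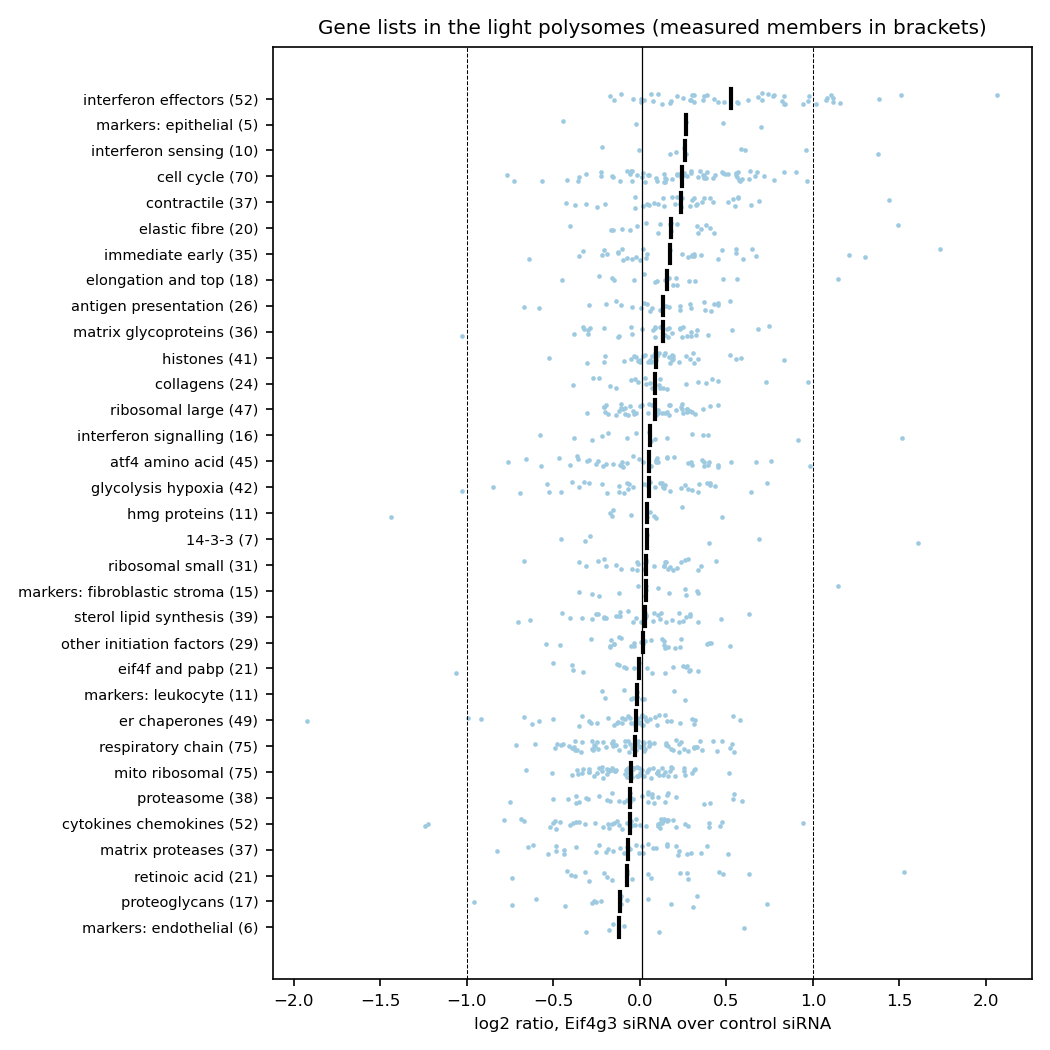
Log2 ratio (Eif4g3 siRNA divided by control) in the light polysomes for the measured members of each gene list (points) with the list median (black bar), a solid line at the median of all measured genes (0.02) and dashed lines at 2-fold. Interferon effectors have the highest median, 0.52, and the next highest lists have 0.26.

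The labelled cell type was checked against markers. Of 20 fibroblastic stromal markers 15 were measured, with Col1a1, Col1a2, Col3a1, Pdpn, Pdgfra, Vcam1 and Icam1 among them, and they held 0.751% of the control signal and 0.998% of the siRNA signal of all measured genes. Their median ratio was 0.04, and S100a4 alone gave 107002 of their summed control signal of 249616. These shares use net signals before loess, so their difference between channels is not a measure of cell composition. S100a4 had net signals of 107002 and 389790 but a ratio of 0.27 after loess. Ccl21c, Cxcl13 and Fap were not well above background in either channel, Ccl19 was so in the siRNA channel alone and Des in the control channel alone.

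A smaller part of the markers of other cells was measured. Of 19 endothelial markers on the array 6 were measured, and Pecam1, Cdh5, Kdr and Tek were not above background. Of 14 epithelial markers 5 were measured, and Cdh1 and Tacstd1 (now Epcam) were not. Of 27 leukocyte markers 11 were measured, and Ptprc, Cd3d, Cd4, Cd8a, Cd79a and Itgam were not. Some measured ones were not dim. Control and siRNA signals were 1147 and 2541 for the endothelial marker Eng and 948 and 1615 for the epithelial marker Krt19. The leukocyte marker Lyzs, now Lyz2, had 640 and 1724. The stromal marker Pdpn was dimmer than these, with 557 and 1477. Each of these lists held at most 0.00486% of the signal of a channel, and the leukocyte share was 0.00486% for control and 0.00409% for siRNA. These shares too are of net signals before loess.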

How the data were processed

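Light, top and heavy fractions were hybridised to 1 array each, all on 1 slide, so fraction and array cannot be told apart. Per the file headers, intensity values on a linear scale for each channel came from Agilent Feature Extraction 10.5.1.1. Its log10 ratio (red divided by green), the error of that ratio and a p-value of each spot stand beside them, per the file headers; the p-value describes the spot and was not used for calls. Values in the table that the authors deposited are log2 ratios equal to the software's, compared over probes with a single spot (largest difference 3.5e-06). Column medians were -0.09 for top, -0.01 for light and 0.22 for heavy. The scale and direction of that table are thus known, and the compared values were not centred further.

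Mean signals and median local backgrounds were corrected by normexp (offset 50) and normalized by loess within each array, control spots at weight 0, with limma 3.58.1 in R 4.3.3. Spots with outlier marks (170 on the light array) were left out, 0 were saturated, spots were averaged per probe and measured probes per gene name. On the light array 20657 of 41158 probes (50.2%) were measured; 9175 of the 14093 genes rest on 1 probe. The number of arrays limits the precision. Calls are 2-fold. The steps were tested on simulated data.

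Gene names are those of the array design. Of the measured ones, 11895 matched a current symbol of GRCm38.p6, and 3488 clone or predicted names were counted and, but for 1 given after its values were seen, not named. Probe positions are on mm8; exon and intron positions were not analysed here. Promoter sequences are from RefSeq (GRCm38.p6).

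Named genes were Eif4g1 to Eif4g3, the 20 highest and 20 lowest past 2-fold with at least median signal and all measured probes on 1 side of 0, and members of the 33 gene lists. The lists, rules and the 6 processing alternatives were chosen with earlier results of these data known. Of genes with a signal in 1 channel alone, 470 were in the siRNA and 214 in the control channel, and 0 had a bound of 2-fold. A few list members are counted in their lists and not reported here by name.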

Additional observations from a re-analysis of the deposited data

Results flagged for a closer look

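Spop, a substrate adaptor of a ubiquitin ligase, had a log2 ratio of -1.01 in the light polysomes and 1.04 in the top fraction. It was the only gene at least 2-fold in one direction in the light polysomes and at least 2-fold in the other direction on another array. With 1 array per fraction the difference was not tested.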

How the results depend on the processing

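With 1 array, no replicate could be left out, and no error between cultures exists. No paired analysis was possible because each fraction has 1 array, which already holds both siRNAs as its channels. The 56 higher genes became 153 without loess, 94 with no background offset, 148 with the software's ratio and 86 with the brightest probe of each gene. The 41 lower genes became 100 with no background offset, 156 with the software's ratio and 28 without loess. The share of higher genes among the calls was 57.7%, or 84.5% without loess, 48.5% with no offset and 48.7% with the software's ratio. Eif4g3 was at -0.89 without loess. The interferon effector median moved from 0.52 to 0.69 with the software's ratio and to 0.31 without the background filter, and the contractile median from 0.24 to 0.48 without loess. The cause was not tested for these shifts. Of 40 named calls, 18 stayed past 2-fold under all 6 alternatives. Without loess 13 fell short, all of them among the 20 lowest genes. Without the background filter 9 fell short (Aldh1a3, Parp14, Ifih1, Gjb2, Eps15, Vim, Parp6, Slc35d1 and Dpy19l3). So did 1 (Efnb1) with the software's ratio and 1 (Nppb) with the brightest probe. No named call changed sign under these alternatives. Of 462 alternative values (gene ratios, list medians and call counts) 395 were classed as the same and 67 as moved. Only gene ratios have a spot error, so for medians and counts these classes do not measure an error. Dim genes are the least certain, since the offset of 50 is above the lowest net signal of a measured probe (15.8 for control and 17.5 for siRNA).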

Other observations

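Of the 56 genes at least 2-fold higher in light polysomes, 7 were below 0 in heavy polysomes, and Zbtb20 was the only one that the naming rule gave. The others were chosen after their values were seen. Parp1, a DNA repair enzyme that senses strand breaks, had 1.09 ± 0.16 in light polysomes, 0.04 in the top and -0.13 in the heavy fraction. Sf3b4, of the spliceosome, had 1.11 ± 0.23, 0.19 and -0.16. Wdr46, of ribosome assembly in the nucleolus, had 1.09 ± 0.23, 0.02 and -0.19, and Ttf2, a transcription termination factor, had 1.04 ± 0.23, 0.01 and -0.32. Cat, the catalase that breaks down hydrogen peroxide, had 1.11 ± 0.23, -0.03 and -0.64, the lowest heavy value among the higher genes. The clone-named BC043118 had 1.05 ± 0.23, 0.41 and -0.12.

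Probes of 1 gene can read different transcripts. There were 1795 genes with more than 1 measured probe of at least median signal, clone and predicted names included. Leaving those names out, 5 genes had probes at least 1.5-fold from 0 in opposite directions, chosen after their values were seen. They were Ankrd11, Cxcl12, Itgb4bp (now Eif6), Ube2d3 and Agps. For Cxcl12, a chemokine of stromal cells that retains lymphocytes, the probe at chr6:117140075-117140134 (mm8) had -0.91 ± 0.22 and the probe at chr6:117146828-117146887 had 0.67 ± 0.21. The heavy fraction gave -1.003 and 0.78 for the same probes, and the top fraction -0.75 and 0.11. Itgb4bp, an initiation factor that keeps large ribosomal subunits from joining, had -0.80, -0.47 and 0.76 on its probes in light polysomes and -0.43, -0.65 and 1.19 in heavy ones. A mean over such probes describes neither.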
